A study of Oryza sativa with 12 samples.

Results

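A set of 86 rice loci stood at least 4 times higher in 12-day wild-type shoots than in every other group of the study. The members were selected on the authors' deposited FPKM values (fragments per kilobase, a level corrected for transcript length and library size). Each member carries 1 RAP gene identifier, reached at least 5 FPKM in 12-day wild type, and stood there at least 4 times above knockout line b, knockout line a and 5-day wild type. They were 86 of the 36019 loci with 1 identifier, and 0.588% of the 14632 such loci that reached 5 FPKM in 12-day wild type.

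RNA sequencing measured whole aerial parts of cultivar Nipponbare in 12 samples, as 4 groups of 3 biological replicates. The groups were 12-day plants of OsC3'H1-knockout line b and of line a, both of generation T3, then wild type at 12 days and wild type at 5 days. All plants were raised at 27 °C with 12 h of light a day in sterile boxes, on diluted Murashige and Skoog medium set with 0.4% agar. Per the labels, wild-type control plants were moved on day 7 to a container with a hypotonic tap-water solution, and no such move is named for the knockout plants. Genotype and growth medium therefore cannot be told apart between the knockout lines and 12-day wild type, and age and medium cannot be told apart between the wild types. Titles and source names of the samples contradict each other on which line is a and which is b. The letters used are those of the titles, and under the source names every value of line a would be one of line b and the reverse.

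OsC3'H1 encodes the cytochrome P450 that hydroxylates p-coumaroyl esters on the way to the guaiacyl and syringyl units of lignin, the phenolic polymer that stiffens plant cell walls. The first week after germination takes a rice shoot from growth on seed reserves to growth on its own photosynthesis and on minerals taken up by the root. Phosphate enters plant cells through PHT1 transporters, FRO enzymes reduce ferric to ferrous iron at membranes, and ALOG proteins are plant nuclear regulators of organ development.

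The targeted transcript served as the check of the labels. OsC3'H1 (Os05g0494000) stood at 12.9 FPKM in line b and 10.7 in line a, against 53.1 in 12-day wild type and 65.7 in 5-day wild type. Of all loci tested over 12-day wild type, 24.2% were called lower in line b and 23.5% in line a. A lower level is thus a limited check, and it does not settle which line is a and which is b. The deposited table holds 1 FPKM per group over its 3 replicates, so no value per plant sample and no standard deviation can be given, and the depth of the libraries is unknown. The leaf markers RBCS2 and RCA, for the Rubisco small subunit and Rubisco activase, summed to 2257 FPKM in line b, 2553 in line a, 32836 in 12-day wild type and 24789 in 5-day wild type. The meristem markers OSH1 and OSH15 summed to 9.64 FPKM in line b, 11.8 in line a and 5.57 in 12-day wild type, and each was listed at 0 in 5-day wild type. Of the 2 root markers LSI2 was listed at 0 in every group, and LSI1 stood at 6.99, 6.56, 2.31 and 10.7 FPKM in line b, line a, 12-day wild type and 5-day wild type. Of the 2 seed storage markers GLUB1 was listed at 0 in every group, and GLUA2 lay between 2.41 and 3.22 FPKM. The part of these markers in the members' levels was not tested, and in bulk tissue fewer cells of a type and less RNA per cell cannot be told apart.

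The members' median was 1.54 FPKM in line b, 1.38 in line a, 22.8 in 12-day wild type and 1.19 in 5-day wild type. Their values in 12-day wild type ran from 5.59 to 933 FPKM, with 14 members at 100 FPKM or more, 48 between 10 and 100 and 24 under 10. The highest value of any member was 42.5 FPKM in line b, 49.2 in line a and 64.3 in 5-day wild type. Listed at 0 were 12 members in line b, 12 in line a and 12 in 5-day wild type, and 65 of the 86 were above 0 in all 4 groups. These ranges follow from the rule and are given as a description.

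**Figure D1:**
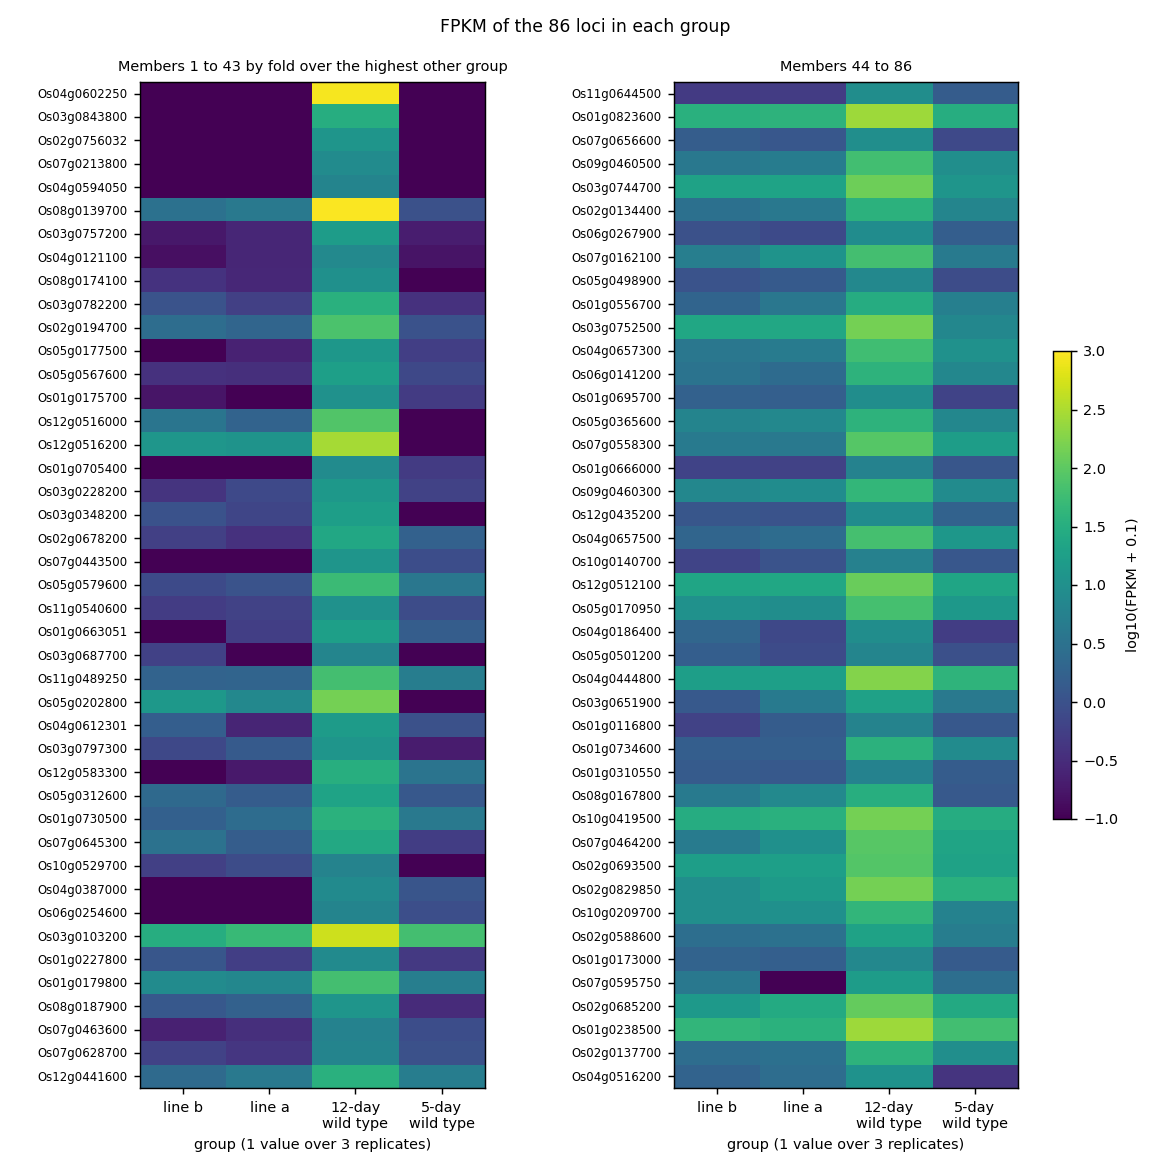
Heat map of log10(FPKM + 0.1) for the 86 members, 1 row each, in line b, line a, 12-day wild type and 5-day wild type, ordered by the ratio of 12-day wild type to the highest other group (5 members listed at 0 in all other groups come first). The bright 12-day column is set by the rule, and the 5-day column is darker than the knockout columns in some rows and brighter in others.

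For 81 members the ratio of 12-day wild type to the highest other group could be formed. This ratio has 12-day wild type on top, so it runs opposite to the knockout over wild-type ratios used further on. Its median was 6.68 and its maximum 231. It lay between 4 and 5 in 22 members, between 5 and 10 in 36, between 10 and 20 in 10, and at 20 or more in 13. The highest of the other groups was line b in 19 of the 81 members, line a in 22 and 5-day wild type in 40.

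**Figure D2:**
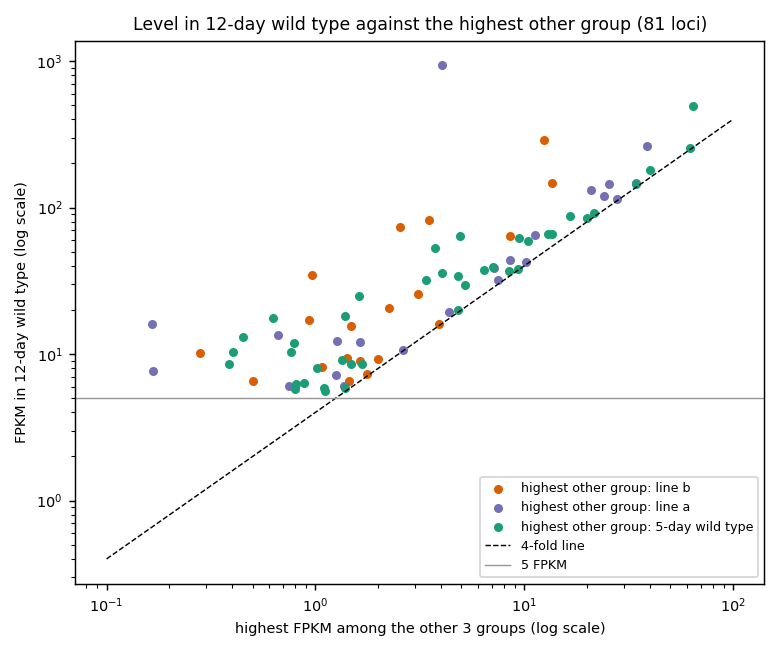
FPKM in 12-day wild type (log scale) against the highest FPKM among the other groups (log scale) for the 81 members with such a value above 0, coloured by which group that was. Many members lie close to the 4-fold line, and the point far above the others at 933 FPKM is Os08g0139700.

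At the lower edge of the rule, Os04g0516200, Os02g0137700 and Os01g0238500 stood 4.06, 4.06 and 4.12 times above their highest other group. Just outside, Os07g0605200, Os04g0578200 and Os03g0704100 reached 3.99, 3.94 and 3.94 times. At the level threshold, Os10g0140700, Os07g0463600 and Os01g0666000 were just inside, at 5.59, 5.74 and 5.82 FPKM in 12-day wild type. Os04g0399600, Os07g0179300 and Os08g0221300 were just outside, at 4.52, 4.46 and 4.28 FPKM.

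Of the 14632 loci at 5 FPKM or more in 12-day wild type, 632 were at least 4 times above line b, 537 above line a and 260 above 5-day wild type. Both lines were exceeded in this way by 475 loci, of which 389 did not reach 4 times over 5-day wild type. Another 174 loci reached 4 times over 5-day wild type and not over both lines.

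Os08g0139700 had the highest level of all members. It stood at 2.96 FPKM in line b, 4.03 in line a, 933 in 12-day wild type and 0.866 in 5-day wild type. In the authors' deposited table its log2 ratio was -8.30 in line b and -7.85 in line a over 12-day wild type, and 10.07 in 12-day over 5-day wild type. The table places it on IRGSP-1.0 chromosome 8 in an interval from 2172716 to 2213901, which it shares with 6 other loci. The 5 of these at 1 FPKM or more did not have its pattern. Os08g0139100, for one, stood at 40.8 FPKM in line b, 45.3 in line a, 121 in 12-day wild type and 210 in 5-day wild type.

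Os04g0602250 came next, at 885 FPKM in 12-day wild type and listed at 0 in line b, line a and 5-day wild type. It was not tested in any comparison of the authors' deposited table. It shares its interval (chromosome 4, 30385512 to 30390752) with 2 other expressed loci. Os04g0602100, in that interval, stood at 34.3 FPKM in line b, 38.1 in line a, 194 in 12-day wild type and 162 in 5-day wild type. How fragments were divided between loci of 1 interval is not given in the sources used here, so the level of Os04g0602250 is uncertain.

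The next members by level were above 0 in both knockout lines. Os03g0103200 stood at 31.3 FPKM in line b, 49.2 in line a, 495 in 12-day wild type and 64.3 in 5-day wild type. Os12g0516200 stood at 12.4 FPKM in line b, 11.2 in line a, 290 in 12-day wild type and 0 in 5-day wild type. Of this pair only Os12g0516200 was listed at 0 at 5 days. Os01g0823600 stood at 34.4 FPKM in line b, 38.8 in line a, 262 in 12-day wild type and 31.5 in 5-day wild type. Os01g0238500 stood at 42.5 FPKM in line b, 36.0 in line a, 256 in 12-day wild type and 62.1 in 5-day wild type. In Os01g0238500, 5-day wild type was above both lines, a difference called in both lines. In Os01g0823600 5-day wild type did not differ from either line by more than the implied error, with deposited log2 ratios of 0.13 in line b and 0.30 in line a (implied errors 0.37 and 0.40, not called).

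The remaining members among the 10 highest were FRO1, Os05g0202800, Os10g0419500 and Os02g0829850. Os05g0202800 stood at 13.6 FPKM in line b, 7.31 in line a, 148 in 12-day wild type and 0 in 5-day wild type. Os10g0419500 stood at 30.3 FPKM in line b, 34.2 in line a, 146 in 12-day wild type and 29.6 in 5-day wild type. Os02g0829850 stood at 9.33 FPKM in line b, 15.0 in line a, 145 in 12-day wild type and 34.4 in 5-day wild type, and shares a long interval on chromosome 2 with 11 other expressed loci. Outside 12-day wild type these members differed in kind, with Os05g0202800 listed at 0 at 5 days and Os10g0419500 at a like level in each of the other groups.

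By ratio, the 10 leading members began with 5 that were listed at 0 in all groups but 12-day wild type. These were Os04g0602250, described above, Os03g0843800 at 30.5 FPKM in 12-day wild type, Os02g0756032 at 12.1, Os07g0213800 at 8.53 and Os04g0594050 at 6.24. No fold is given for them. Os08g0139700 followed. Os02g0756032 and Os04g0594050 are short loci, of 186 and 187 bases, and neither was tested in the authors' deposited table. The last 4 of the 10 were under 1 FPKM in every group but 12-day wild type. Os03g0757200 stood at 0.0793 FPKM in line b, 0.165 in line a, 16.1 in 12-day wild type and 0.108 in 5-day wild type. Os04g0121100 stood at 0.0485 FPKM in line b, 0.167 in line a, 7.63 in 12-day wild type and 0.0618 in 5-day wild type. Neither passed the test in any of the 3 comparisons with 12-day wild type. For Os03g0757200 the authors' deposited table gives a log2 ratio of -7.67 with an implied error of 4.84 in line b over 12-day wild type (deposited q = 0.237). Os08g0174100 stood at 0.279 FPKM in line b, 0.179 in line a, 10.1 in 12-day wild type and 0 in 5-day wild type. Os03g0782200 stood at 0.963 FPKM in line b, 0.471 in line a, 34.6 in 12-day wild type and 0.266 in 5-day wild type. The ratios of these 4 thus rest on denominators under 1 FPKM.

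A locus was counted as called where the authors' deposited q was under 0.05 and the test was listed as done. The implied error beside a log2 ratio is that ratio divided by the deposited test statistic. The rule used all 3 comparisons with 12-day wild type, so their calls are given beside the background and nothing is read from them. In line b over 12-day wild type 64 of the 83 tested members were called lower and none higher, and of all loci tested 24.2% were lower and 22.2% higher. In line a over 12-day wild type 63 of 83 were called lower and none higher, and of all loci tested 23.5% were lower and 21.3% higher. In 12-day over 5-day wild type 59 of 83 were called higher and none lower, and of all loci tested 14.8% were higher and 13.5% lower. All 3 comparisons called 48 members, beside 6.47% of the loci tested in all 3.

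The members with fewer calls were mostly of low level. Of the others, 16 were called in 2 comparisons, 10 in 1 and 12 in none, of which 3 were not tested. The median in 12-day wild type was 60.6 FPKM for the members called in all 3 comparisons, 10.5 for those called in 2, 10.2 for those called in 1 and 10.3 for those called in none. An error could be solved for single groups in 34 members from the deposited statistics, and their median was 0.361 on the log2 scale in line a, 0.165 in 12-day wild type and 0.371 in 5-day wild type. Over the other loci at 5 FPKM or more in 12-day wild type these medians were 0.212, 0.213 and 0.213 in the same order. Solving needed a tested, finite ratio of line a over 5-day wild type, so the other members are not covered. The rule set 12-day wild type above the other groups, and how far level shapes these errors was not tested.

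**Figure D3:**
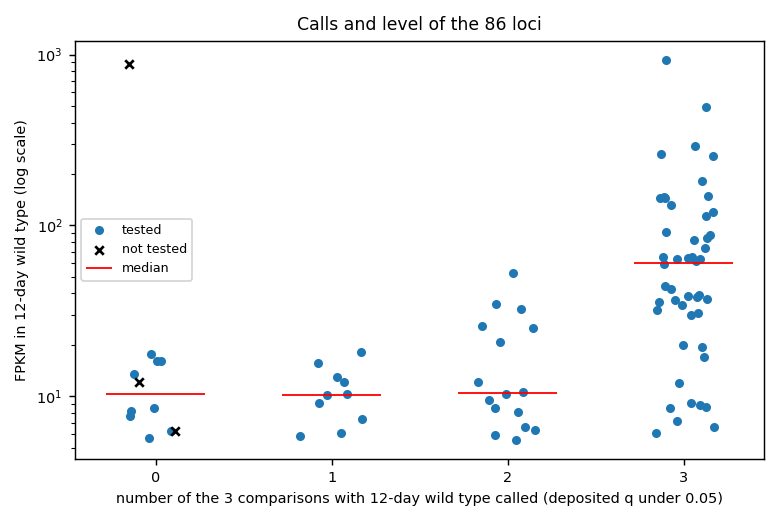
FPKM in 12-day wild type (log scale) of the 86 members by the number of comparisons with 12-day wild type that were called, with the median as a red line and the 3 members not tested as crosses. The members called in all 3 comparisons reach higher levels, with a median of 60.6 FPKM against 10.2 to 10.5 in the other columns.

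The rule limits the knockout lines and 5-day wild type only from above, so it does not fix the order among them. The limit was met unequally, by 632 loci for line b, 537 for line a and 260 for 5-day wild type. In 40 of the 81 members with a ratio, 5-day wild type was the highest other group. The choice of members can therefore shape the counts and medians below, and how far was not tested. In line b over 5-day wild type 35 members were tested. Of these 6 were higher (17.1%) and 13 lower (37.1%), and of all loci tested 25.6% were higher and 26.6% lower. In line a over 5-day wild type 36 members were tested. Of these 7 were higher (19.4%) and 10 lower (27.8%), and of all loci tested 24.7% were higher and 26.2% lower. The median log2 ratio was -1.03 over the 33 tested members with a finite ratio in line b, and -0.44 over 34 in line a. Over all loci tested with a finite ratio the medians were 0.00473 and -0.000914. Left out of the members' medians were Os12g0516200 and Os05g0202800, listed at 0 at 5 days and called higher in both lines. Over all members above 0 in both groups, tested or not, the median was -0.55 in line b (67 members) and -0.25 in line a (68). The 50 members tested in neither line are not covered by the counts of calls, and no test of the set was made. Both comparisons share the 5-day samples.

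A normal test on the implied error called fewer, with 1 member higher and 8 lower in line b over 5-day wild type, and 2 higher and 7 lower in line a. Members listed at 0 in a group have no implied error and drop out of that test. The share of all loci called by it is not given here, so nothing is read from its counts.

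For description, the members were grouped by their calls in both comparisons. Of the 35 members tested in both, 5 were higher in each, beside 22.1% of all loci tested in both. Lower in each were 9, beside 23.9%. A further 13 were tested and called in neither, and no share over all loci is given for these. Because the 5-day samples are shared, like calls in both lines are not independent, and nothing is read from these counts. The members named from here to the end of the comparison with 5-day wild type were chosen after their values were seen.

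The 5 that rose in both lines included a pair listed at 0 at 5 days, Os12g0516200 and Os05g0202800, whose values are given above. Os03g0752500 stood at 23.7 FPKM in line b, 25.3 in line a, 144 in 12-day wild type and 7.02 in 5-day wild type. In the authors' deposited table its log2 ratio over 5-day wild type was 1.75 with an implied error of 0.44 in line b and 1.85 with 0.44 in line a, each at the smallest deposited q of 0.00025. Os08g0167800 stood at 4.41 FPKM in line b, 7.50 in line a, 32.1 in 12-day wild type and 1.20 in 5-day wild type. Os03g0744700 stood at 19.7 FPKM in line b, 20.9 in line a, 132 in 12-day wild type and 12.1 in 5-day wild type. In these 5 members every 12-day group was above the 5-day group, with 12-day wild type the highest. The rule and the grouping on calls set this order. Of their calls, the normal test on the implied error kept that of Os03g0752500 in both lines and that of Os08g0167800 in line a, and lost those of Os03g0744700 in both lines and of Os08g0167800 in line b.

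The 9 that fell in both lines had their second highest level at 5 days, an order set by the rule and by the grouping on calls. Os04g0657500 stood at 1.92 FPKM in line b, 2.49 in line a, 65.5 in 12-day wild type and 13.0 in 5-day wild type. Its deposited log2 ratio over 5-day wild type was -2.75 with an implied error of 0.63 in line b and -2.38 with 0.51 in line a (deposited q = 0.00025 for each). Os01g0734600 stood at 1.46 FPKM in line b, 1.55 in line a, 36.7 in 12-day wild type and 8.45 in 5-day wild type. Os07g0558300 stood at 4.27 FPKM in line b, 4.05 in line a, 88.1 in 12-day wild type and 16.5 in 5-day wild type. Os02g0137700 stood at 2.63 FPKM in line b, 2.85 in line a, 38.1 in 12-day wild type and 9.37 in 5-day wild type. The other members of this kind were FRO1, Os07g0464200, Os01g0238500, Os02g0134400 and Os03g0103200. Os03g0103200 had a deposited log2 ratio of -1.04 in line b (implied error 0.29, deposited q = 0.00025) and -0.39 in line a (implied error 0.26, deposited q = 0.030). The normal test lost the calls of Os02g0134400 in both lines, of Os01g0238500 in line b and of Os03g0103200 in line a, and kept the others of these 9 members.

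Of the 13 tested members called in neither line, some had ratios smaller than the implied error. Os12g0512100 stood at 22.3 FPKM in line b, 24.0 in line a, 120 in 12-day wild type and 22.7 in 5-day wild type. Its deposited log2 ratio over 5-day wild type was -0.03 in line b and 0.08 in line a, with an implied error of 0.24 in each. Os10g0419500, with deposited log2 ratios of 0.04 and 0.21 in line b and line a and implied errors of 0.27 and 0.26, and Os02g0693500, with -0.21 and -0.14 and implied errors of 0.32 and 0.31, were likewise not called. Other uncalled members had wide errors, such as Os09g0460500 at 3.82 FPKM in line b, 4.60 in line a, 62.1 in 12-day wild type and 9.40 in 5-day wild type.

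**Figure D4:**
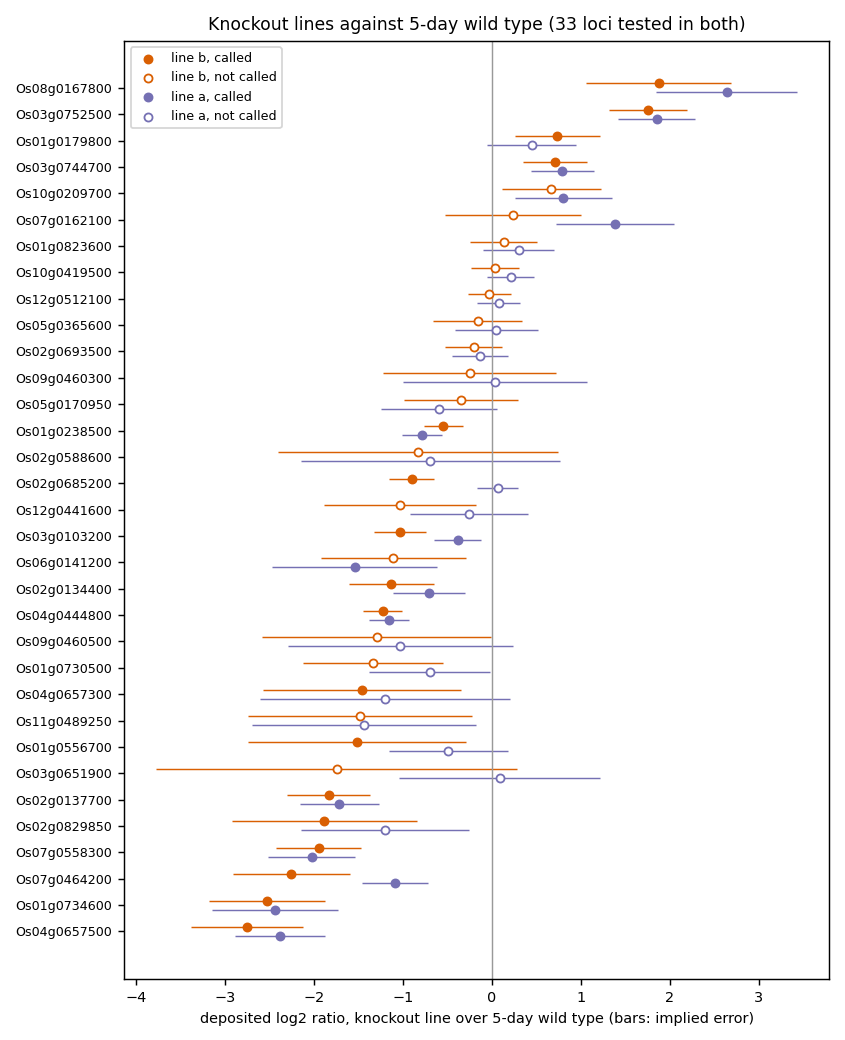
Deposited log2 ratio of line b and of line a over 5-day wild type for the 33 members tested in both with a finite ratio, with the implied error as bars and filled points for calls at deposited q under 0.05. Members range from above 0 in both lines (Os08g0167800, Os03g0752500) to below 0 in both (Os01g0734600, Os04g0657500).

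Nor does the rule fix the order of the lines, though fewer loci met its limit for line a (537) than for line b (632). In line b over line a 26 members were tested, of which none was higher and 5 lower (19.2%), and of all loci tested 2.47% were higher and 2.52% lower. The median deposited log2 ratio of the tested members was -0.17, beside -0.01 over all loci. The 5 called members, named here because the count is small, were Os02g0685200, Os07g0464200, Os07g0162100, Os08g0167800 and Os03g0103200. The normal test on the implied error kept 1 of them, Os02g0685200, and a minimum of a 2-fold change kept 2, Os07g0464200 and Os07g0162100. Os02g0685200 stood at 14.2 FPKM in line b, 27.7 in line a, 114 in 12-day wild type and 26.5 in 5-day wild type. Os07g0162100 stood at 5.05 FPKM in line b, 11.2 in line a, 64.6 in 12-day wild type and 4.29 in 5-day wild type. In Os02g0685200 line a was near the 5-day level and line b below it, whereas in Os07g0162100 line b was near the 5-day level and line a above it.

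The files pair no member with a name, and none of the 86 identifiers was found in the RefSeq table of assembly ASM3414082v1. For 3 members a symbol known for the locus lies in RefSeq at the same relative place of the same chromosome, within 0.02 of its length. PT4 was on the phosphate list, and FRO1 and G1L4 were named after their values were seen. No role is given for the other 83.

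PT4 (Os04g0186400, chromosome 4, 5846286 to 5849272) encodes a PHT1 phosphate transporter. It stood at 1.99 FPKM in line b, 0.634 in line a, 9.19 in 12-day wild type and 0.428 in 5-day wild type. The rule chose it on these values, and the differences among the low groups were not tested in the authors' deposited table. Of the 12 phosphate starvation genes listed, PT4 was the only member. In 12-day over 5-day wild type 4 of the 8 tested were called higher and none lower, beside 14.8% higher and 13.5% lower over all loci, and the median deposited log2 ratio was 0.57 beside -0.01. Relative to 12-day wild type, 2 of 8 were higher and 4 lower in line b, beside 22.2% and 24.2% of all loci. In line a 2 of 8 were higher and 3 lower, beside 21.3% and 23.5%. These counts and the median include PT4, which was called higher at 12 days and lower in each line. The rule set the direction of those calls, so nothing is read from the counts.

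PT1 and PT8, phosphate transporters chosen from the list after their values were seen, did not have PT4's pattern. PT1 stood at 49.1 FPKM in line b, 54.4 in line a, 16.4 in 12-day wild type and 12.9 in 5-day wild type. PT8 stood at 115 FPKM in line b, 103 in line a, 12.4 in 12-day wild type and 9.27 in 5-day wild type. Both rose in the knockout lines relative to 12-day wild type, with deposited log2 ratios of 1.58 and 1.73 for PT1 in line b and line a and of 3.21 and 3.07 for PT8. SPX1, which encodes a phosphate-sensing SPX-domain protein, stood at 11.6 FPKM in line b, 12.2 in line a, 20.5 in 12-day wild type and 12.3 in 5-day wild type. SPX1 fell in both lines relative to 12-day wild type, with deposited log2 ratios of -0.82 in line b and -0.74 in line a.

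FRO1 (Os04g0444800, chromosome 4, 22182599 to 22186919) encodes a ferric-chelate reductase. It stood at 17.1 FPKM in line b, 18.0 in line a, 181 in 12-day wild type and 40.2 in 5-day wild type. Relative to 5-day wild type, it fell by 1.23 on the deposited log2 scale in line b and by 1.16 in line a. Each ratio had an implied error of 0.22 and a deposited q of 0.00025. The rule limits the groups of this contrast only from above. The lines did not differ detectably from each other, with a deposited log2 ratio of -0.07 in line b over line a (implied error 0.23, deposited q = 0.710).

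None of the 10 iron genes kept on the list was a member, and FRO1 was not on it. In 12-day over 5-day wild type all 3 of the tested genes were lower, beside 13.5% of all loci. FER1 and FER2, which encode the iron storage protein ferritin, were 2 of them. FER1 stood at 38.0 FPKM in line b, 35.7 in line a, 71.2 in 12-day wild type and 129 in 5-day wild type. NAS1, for nicotianamine synthase, stood at 9.39 FPKM in line b and 11.2 in line a and was listed at 0 in both wild types. NAAT1, which acts in phytosiderophore synthesis, stood at 29.8 FPKM in line b, 24.8 in line a, 2.12 in 12-day wild type and 0.494 in 5-day wild type. FER1 was thus highest at 5 days and NAS1 and NAAT1 in the lines. The iron genes named here were picked from the 10 after their values were seen. Relative to 12-day wild type, 3 of the 6 tested iron genes were higher and 2 lower in line b, beside 22.2% and 24.2% of all loci. In line a 2 of the 6 were higher and 2 lower, beside 21.3% and 23.5%.

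G1L4 (Os04g0516200, chromosome 4, 25789726 to 25791630) encodes a protein of the ALOG family. It stood at 1.74 FPKM in line b, 2.62 in line a, 10.7 in 12-day wild type and 0.303 in 5-day wild type, the lowest ratio of the set. Its difference between the wild types was not called in the authors' deposited table, at a log2 ratio of 5.14 with an implied error of 2.55 (deposited q = 0.393).

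**Figure D5:**
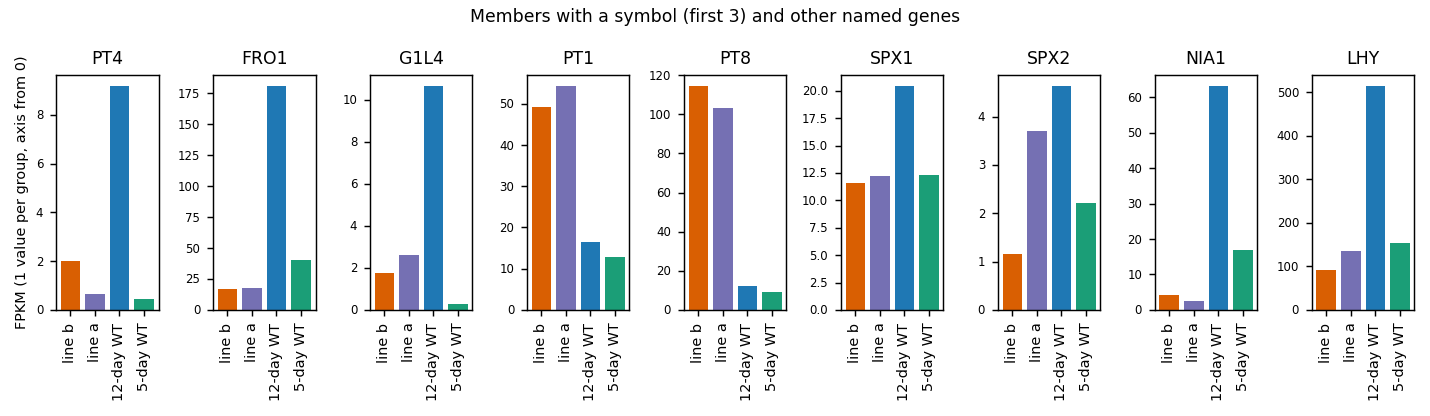
FPKM per group (linear axes from 0, 1 value over 3 replicates per group, so no error bar) for the members PT4, FRO1 and G1L4 and for PT1, PT8, SPX1, SPX2, NIA1 and LHY, which are not members. PT1 and PT8 are highest in the knockout lines, whereas NIA1 and LHY are highest in 12-day wild type.

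In all, 182 genes were kept on 18 lists, and PT4 was the only member among them. Beside this, members were 0.239% of all loci with 1 identifier and 0.588% of those at 5 FPKM or more in 12-day wild type. With such low shares and short lists, nothing is read from the lists without a member. The lists with no member were nitrate uptake and reduction, ammonium uptake and assimilation, potassium transport, iron, flavonoid and anthocyanin, circadian clock and flowering, photosynthesis, chlorophyll synthesis, sugar and starch, cold and dehydration factors, heat shock, aquaporins, expansins, cuticular wax, gibberellin, type A cytokinin response regulators and monolignol synthesis. All 23 photosynthesis genes and all 6 type A response regulators, which dampen cytokinin signalling, were called lower in both lines than in 12-day wild type, beside 24.2% of all loci in line b and 23.5% in line a. Their differences between the wild types were mixed, with 10 photosynthesis genes higher and 8 lower at 12 days, and 1 response regulator higher and 2 lower, beside 14.8% and 13.5% of all loci. The photosynthesis and response regulator lists were picked after their values were seen. All 8 chlorophyll synthesis genes were also called lower in both lines. The 4 tested cold and dehydration factors and the 2 tested potassium transport genes were called higher in both, beside 22.2% of all loci in line b and 21.3% in line a.

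The listed genes nearest to the rule were NIA1 and LHY. NIA1, a nitrate reductase gene, stood at 4.18 FPKM in line b, 2.65 in line a, 63.2 in 12-day wild type and 17.0 in 5-day wild type, 3.72 times above its highest other group. LHY, a clock factor whose transcript peaks around dawn, stood at 92.1 FPKM in line b, 137 in line a, 515 in 12-day wild type and 153 in 5-day wild type, 3.36 times above its highest other group. PCL1, a clock factor of the evening complex, stood at 22.2 FPKM in line b, 13.1 in line a, 5.16 in 12-day wild type and 12.6 in 5-day wild type. LHY and PCL1 thus lay in opposite order across the groups, and their part in the members' levels was not tested. They were picked from 14 clock and flowering genes after their values were seen. Relative to 12-day wild type, 6 of the 8 tested were higher and 2 lower in line b, beside 22.2% and 24.2% of all loci. In line a 3 of the 7 tested were higher and 2 lower, beside 21.3% and 23.5%. In 12-day over 5-day wild type 2 of the 5 tested nitrate genes were higher and 1 lower, and 3 of the 7 tested clock and flowering genes were higher and 2 lower, beside 14.8% and 13.5% of all loci.

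The members lay on all 12 chromosomes, from 15 on chromosome 1 to 2 on chromosome 9. Chromosome 7 held 10 of them (11.6%) beside 7.62% of the loci at 5 FPKM or more in 12-day wild type, and chromosome 6 held 3 (3.49%) beside 7.87%. Intervals of the deposited table are shared by several loci in places. Of the members 57 were alone in theirs and 29 shared it (33.7%), beside 29.5% of the loci at 5 FPKM or more, and 15 shared it with a locus of at least 1 FPKM. The median interval of the members that were alone was 2413 bases, with a range from 186 to 11833, beside 3534.5 bases over 10314 such loci.

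Members lay within 3 identifiers of each other in 4 pairs, which were named after their values were seen. On chromosome 12, Os12g0516000 stood at 3.49 FPKM in line b, 1.79 in line a, 82.7 in 12-day wild type and 0 in 5-day wild type, next to Os12g0516200. The gene before this pair, Os12g0515800, is not a member and stood at 457 FPKM in line b, 329 in line a, 1035 in 12-day wild type and 32.2 in 5-day wild type. All these loci were lowest at 5 days, and Os12g0515800 was well above the pair in the knockout lines. The gene after it, Os12g0516300, stood between 25.1 and 35.4 FPKM in every group.

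On chromosome 4, Os04g0657300 stood at 3.77 FPKM in line b, 4.53 in line a, 59.2 in 12-day wild type and 10.4 in 5-day wild type, next to Os04g0657500. The groups had the same order of values at both loci of this pair, with 12-day wild type placed first by the rule. The lines were not called different at Os04g0657300 and were not tested against each other at Os04g0657500. On chromosome 7, Os07g0463600 stood at 0.131 FPKM in line b, 0.240 in line a, 5.74 in 12-day wild type and 0.797 in 5-day wild type. Its partner Os07g0464200 stood at 4.51 FPKM in line b, 10.1 in line a, 91.6 in 12-day wild type and 21.6 in 5-day wild type. Line b was the lowest and line a the next lowest value at both, but the lines were not tested against each other at Os07g0463600.

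On chromosome 9, Os09g0460300 stood at 7.02 FPKM in line b, 8.58 in line a, 44.1 in 12-day wild type and 8.37 in 5-day wild type. It shares an interval from 17359210 to 17449590 with Os09g0460500. Between them Os09g0460400 stood at 64.8 FPKM in line b, 62.4 in line a, 45.2 in 12-day wild type and 13.5 in 5-day wild type. The locus after them, Os09g0460700, stood at 2.82 FPKM in line b, 1.67 in line a, 8.71 in 12-day wild type and 0.678 in 5-day wild type, 3.09 times above its highest other group. The pattern was therefore not shared by every neighbour in this interval.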

How the data were processed

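Whole aerial parts of 12 rice samples were sequenced. Per the submitters' processing notes, Trimmomatic, FastQC, HISAT2, Cufflinks and Cuffdiff were used on genome build IRGSP-1.0. Versions and options are not given in the sources used here. The authors' deposited Cuffdiff table holds 37672 loci and 6 comparisons, with FPKM as 1 value per group over 3 replicates. Fold changes were deposited as log2 values, the ratio of both groups' FPKM. The deposited score is the Cuffdiff test statistic. Each p-value was deposited with a q-value, for 108602 tests in all, and the smallest p is 5e-05. The fold and level of the rule use FPKM with no pseudocount. Starts were read as 0-based and printed 1-based. Low values and fragments shared between overlapping loci make single FPKM uncertain, and no interval can be given without counts.

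The members and gene lists were chosen with earlier results of these data known. Of 189 listed genes, 114 had their symbol at the same place in RefSeq, 68 had a symbol absent from it, and 7 found elsewhere were dropped. OsC3'H1, listed under monolignol synthesis, was among the genes dropped from the lists. The genes named were OsC3'H1, members on a list, the 10 members of largest ratio, the 10 of highest level, and the loci beside each threshold. Others were chosen after their values were seen. Among these were PT1, PT8, SPX1, SPX2, FER1, FER2, NAS1, NAAT1, NIA1, LHY and PCL1, which are on the lists and are not members. Calls were those of the authors' table at deposited q under 0.05. Alternatives varied the fold, level, pseudocount, q and error. The counting was tested on simulated data. Python 3.11.15 and pandas 2.3.3 were used.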

Additional observations from a re-analysis of the deposited data

Results flagged for a closer look

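A difference between the knockout lines flagged 5 members, whose deposited log2 ratio in line b over line a passed the deposited q. It was -0.65 for Os03g0103200, -1.15 for Os07g0162100, -0.77 for Os08g0167800, -1.17 for Os07g0464200 and -0.97 for Os02g0685200. In the same order the implied errors were 0.30, 0.61, 0.43, 0.69 and 0.26. With a normal test on these errors only the call of Os02g0685200 was kept.

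A signal in loci outside the members flagged 3 loci without an annotated gene, which pass the same thresholds. On chromosome 7 (3264342 to 3266632) the deposited values were 0.138 FPKM in line b, 0 in line a, 8.65 in 12-day wild type and 0 in 5-day wild type. On chromosome 3 (10076886 to 10077997) they were 0 FPKM in line b, 0.144 in line a, 8.43 in 12-day wild type and 0.621 in 5-day wild type. On chromosome 4 (23381954 to 23383264) they were 0.622 FPKM in line b, 1.46 in line a, 7.77 in 12-day wild type and 1.28 in 5-day wild type.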

How the results depend on the processing

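The rule found 145 members at a fold minimum of 3, 34 at a fold minimum of 8, 130 at 2 FPKM, and 48 when a call against all 3 other groups was also asked, in place of 86. With a normal test on the implied error, 9 members in place of 19 were called in line b over 5-day wild type (1 higher and 8 lower, in place of 6 and 13), 9 in place of 17 in line a over 5-day wild type (2 higher and 7 lower, in place of 7 and 10), and 1 in place of 5 in line b over line a. Among the members at a fold minimum of 8, these counts were 2, 2 and 0 in the same order. Both calls over 5-day wild type were higher in each line and none was lower, so the larger number of lower calls was not kept. In each line they were the calls of Os12g0516200 and Os05g0202800, both listed at 0 in 5-day wild type. For 12-day wild type against each other group the count was 10 in place of 48. Fewer members were tested at this minimum. For the normal test no share over all loci is given, so nothing is read from its counts. A change of at least 2-fold left 2 of the 5 calls in line b over line a, and 22 in place of 68 calls on the gene lists in 12-day over 5-day wild type. For the lists over 12-day wild type it left 74 of 109 calls in line b and 68 of 99 in line a. The cause of the other shifts was not tested. The remaining alternatives moved no count by more than 1.5 times. The alternatives that asked for no other locus at 1 FPKM in the interval (71 members) and for values above 0 in all 4 groups (65 members) were chosen after seeing the data. No paired analysis was possible because the deposited table holds 1 value per group, and for the same reason no replicate was left out in turn. Unknown depth limits what a value of 0 can show.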
